A study of Chlamydomonas reinhardtii with 6 samples.

Results

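Low nitrogen was compared with the control treatment in *Chlamydomonas reinhardtii*, a unicellular green alga, over 4 of the 6 RNA-seq libraries of the study. The 4 libraries were those labelled control or low nitrogen, 2 for each treatment, and each treatment held 1 library of single cells and 1 of cell groups. Both isolates came from selection lines started with the wildtype strain cc1009. The single cell isolate came from a line kept without the predator, and the cell group isolate, which formed groups with no single cells, came from a line kept with the rotifer *Brachionus calyciflorus*. Each morphotype is therefore 1 clone. All cultures grew in chemostats on COOL80 medium for 10 days. The low-nitrogen cultures then received medium with 40 µM nitrogen in place of 80 µM, the control cultures stayed as they were, and both were harvested 5 days later. No rotifers were present in either treatment. The RNA of the chemostats of a treatment was pooled before sequencing, so each condition is 1 library, and the 2 morphotypes are the only replication of the treatment. A p-value then sets the treatment difference against its spread between these 2 isolates. With 1 residual degree of freedom, that spread is taken largely from all genes together and little from the gene itself.

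Nitrogen sets how much protein, chlorophyll and nucleic acid an algal cell can make. When it runs short, *C. reinhardtii* is known to take up and recycle other nitrogen sources, to store starch and oil and, when nitrogen is gone, to turn into gametes. Here the supply was lowered in a continuous culture and never removed. The count table gives genes by identifiers of the form Cre12.g546500, in which the first number is the chromosome. The files and the gene table used here pair no identifier with a gene name, so genes are described by identifier, position among their neighbours and counts, and by a function only where the study gives one.

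The question was which genes respond to low nitrogen in both morphotypes. Library totals ran from 7475062 to 9054895 reads counted on genes over the 4 libraries. Levels are given as CPM, the counts relative to the library total after scaling by trimmed means of M-values (TMM), and differences as the log2(CPM + 0.5) of the low-nitrogen library minus that of the control library of the same morphotype. On this scale the difference between the libraries, as the root mean square over genes, was 0.98 between control and low nitrogen in single cells and 0.66 in cell groups. Between the morphotypes it was 1.16 in control and 1.09 under low nitrogen. The control library of single cells was the highest of the 4 for 30.3% of the tested genes and the lowest for 29.7%, and the control library of cell groups for 20.9% and 21.1%. RNA from whole cultures cannot tell fewer cells in a state from less RNA per cell.

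No gene passed an adjusted p of 0.05 when low nitrogen was tested against control with morphotype as a blocking factor (edgeR quasi-likelihood test over 14340 genes, Benjamini-Hochberg adjustment, lowest adjusted p = 0.999). The background of calls was thus 0%. An unadjusted p under 0.05 was reached by 619 genes, or 4.32% of those tested, with 227 (1.58%) higher and 392 (2.73%) lower under low nitrogen. With the library totals as the only scaling, the numbers were 287 higher and 274 lower, since this scaling moves the median difference in cell groups from -0.01 to 0.22. DESeq2 called 22 genes in the same design, 5 higher and 17 lower, or 0.153% of the genes, and limma called none, with 677 genes at an unadjusted p under 0.05. All 22 genes called by DESeq2 differed at least 2-fold in the same direction in both morphotypes. This follows largely from the design, which fits 1 treatment term to both morphotypes of the same libraries. Of the 619 genes with an unadjusted edgeR p under 0.05, 99.5% likewise had the same direction in both.

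In a fit over all 6 libraries again no gene passed, and the same held when a single-cell library or the low-nitrogen library of cell groups was left out of it. Without the control library of cell groups, 488 genes passed, 106 higher and 382 lower. In that fit the low-nitrogen library of cell groups has no control library of its own morphotype.

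Within single cells, 1237 genes (8.63%) were at least 2-fold higher and 2001 genes (14%) at least 2-fold lower under low nitrogen. Within cell groups, 958 genes (6.68%) were higher and 665 (4.64%) lower by the same measure. The median absolute log2 difference was 0.50 for single cells and 0.35 for cell groups. These values come from 1 library per condition and carry no test.

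The 2 morphotypes shared few of these differences. At least a 2-fold difference in the same direction was seen for 354 genes, or 2.47% of those tested, of which 146 (1.02%) were higher and 208 (1.45%) lower in both morphotypes. Opposite directions were seen for 353 genes (2.46%). Genes that were 2-fold lower in single cells and 2-fold higher in cell groups numbered 281 (1.96%), against 72 (0.502%) for the reverse. Scaled by library totals alone, 184 genes were higher and 148 lower in both morphotypes, so the balance between the directions depends on the scaling. Over all tested genes and any size of difference, the direction was the same in both morphotypes for 50.6%. Across these genes the differences of the 2 morphotypes had a Pearson r of 0.0027.

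The overlap can be read from either side. Of the 2001 genes that were lower in single cells, 10.4% were also lower in cell groups and 14.0% were higher there. Of the 1237 genes that were higher in single cells, 11.8% were also higher in cell groups and 5.82% were lower there. Among all tested genes 4.64% were lower and 6.68% higher in cell groups. Of the 665 genes lower in cell groups, 31.3% were also lower in single cells and 10.8% were higher. Of the 958 genes higher in cell groups, 15.2% were also higher in single cells, whereas 29.3% were lower. Among all tested genes 14.0% were lower and 8.63% higher in single cells.

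**Figure D1:**
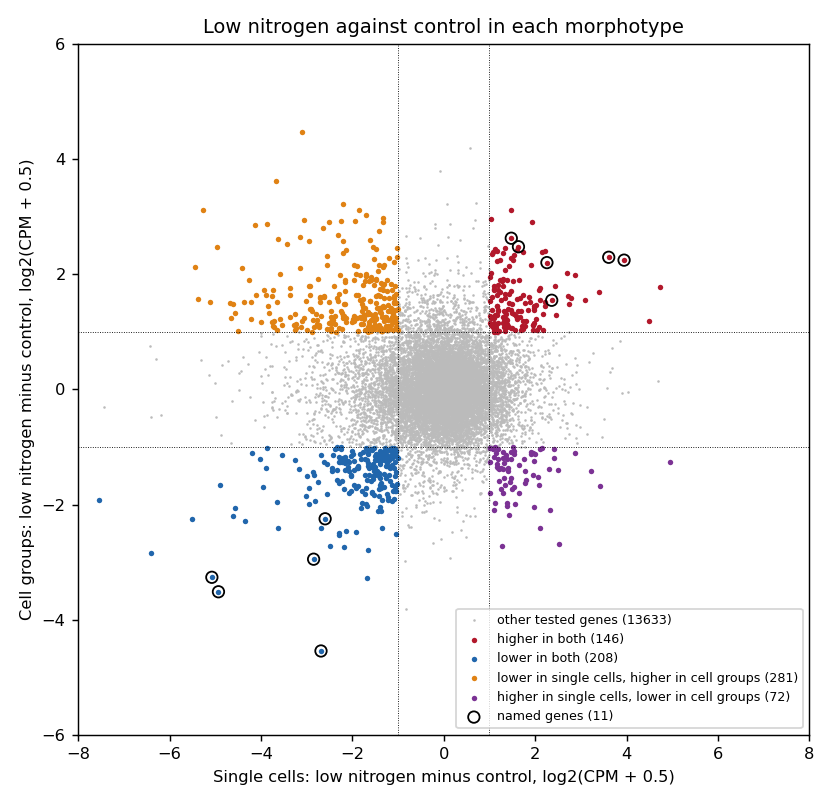
Difference between low nitrogen and control for the 14340 tested genes, in single cells on the x axis and in cell groups on the y axis, both in log2(CPM + 0.5), with dotted lines at 2-fold and circles around the 11 named genes. Upper right and lower left hold the 146 and 208 genes that were higher or lower in both morphotypes, and the remaining corners hold the 281 and 72 genes of opposite direction.

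Much of the shared set had low counts. The median of the mean CPM over the 4 libraries was 4.91 for genes higher in both morphotypes and 9.47 for genes lower in both, against 17.02 for all tested genes. Under a mean of 5 CPM, 2.84% of the genes were higher and 2.49% lower in both morphotypes. From 100 CPM on, the shares were 0.401% and 0.870%, or 6 and 13 of 1495 genes. Low levels were not particular to the shared direction. Genes lower in single cells and higher in cell groups had a median of 8.18 CPM and took 4.16% of the genes under 5 CPM. For the reverse pattern the values were 31.5 CPM and 0.777%. The median log2 difference of the genes higher in both was 1.45 for single cells as well as for cell groups. For the genes lower in both it was -1.66 and -1.37. With the genes at 0 counts set to a floor of 3 counts, all 4 medians were the same at this precision. The genomic span had a median of 3795 bp for the genes higher in both, 5032.5 bp for those lower in both and 4702 bp over all tested genes.

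**Figure D2:**
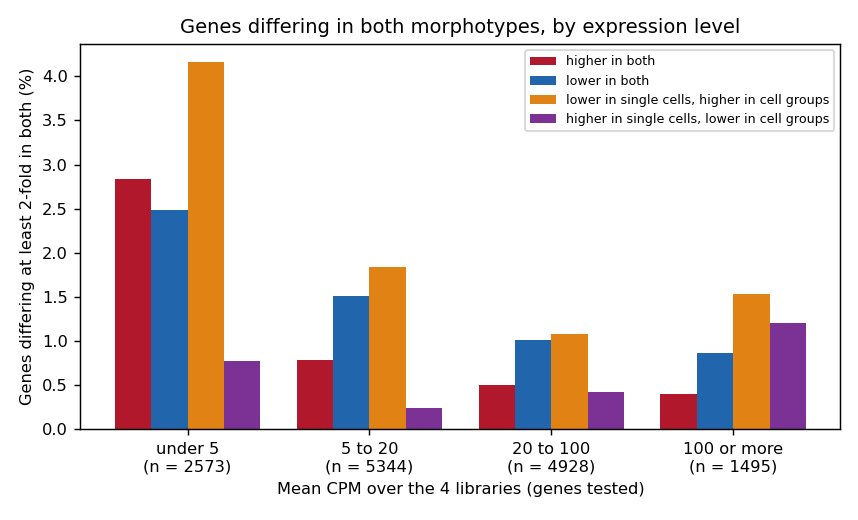
Share of tested genes, in percent, that differed at least 2-fold between low nitrogen and control in both morphotypes, by mean CPM over the 4 libraries, with bars for each combination of directions. The shares of genes higher or lower in both morphotypes are 2.84% and 2.49% below 5 CPM and 0.401% and 0.870% from 100 CPM on.

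The genes named next are those with the largest shared difference, measured by the smaller of the differences in the 2 morphotypes, and those with the lowest p in each direction, 5 lower and 6 higher under low nitrogen. Ranked by the mean of the morphotypes instead, other genes come first, such as Cre12.g546550 with -4.73. None of them passed the adjusted threshold of the edgeR test, where each had an adjusted p of 0.999. DESeq2 called 6 of the 11. In all 5 lower genes both low-nitrogen libraries lay below both control libraries, a pattern held by 12.5% of all tested genes, though these 5 were chosen on the same values. In 3 of the 6 higher genes both low-nitrogen libraries lay above both control libraries, as in 12.2% of all tested genes. The same limit holds for them. The choice also favours genes whose differences agree between the morphotypes, so small standard errors and near-equal differences below are partly fixed by it.

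Cre12.g546500 had 838 counts in control and 20 under low nitrogen in single cells, with 458 and 41 in cell groups. Both low-nitrogen libraries were far below both controls. The mean log2 difference over the morphotypes was -4.22 (standard error 0.71, n = 2). It had the lowest p of the named genes in the edgeR test, 0.000175 before adjustment and 0.999 after it.

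Cre12.g530400 had 153 and 31 counts in the control libraries of single cells and cell groups and none in either low-nitrogen library. Against a floor of 3 counts per library it was at least 44.5-fold lower in single cells and at least 11.5-fold lower in cell groups. These bounds cover counting error only. Its neighbour Cre12.g530350 had 203 counts in control and 16 under low nitrogen in single cells, with 43 and 16 in cell groups.

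Cre16.g648950 had 376 counts in control and 42 under low nitrogen in single cells, with 142 and 17 in cell groups. Its log2 differences were nearly equal in the morphotypes, -2.85 and -2.95 (mean -2.90, standard error 0.05, n = 2). Cre03.g146447 had 641 and 89 counts in single cells, with 367 and 83 in cell groups, again with low nitrogen below control in each. Its mean log2 difference was -2.42 (standard error 0.18, n = 2). Cre01.g046650 had 151 and 17 counts in single cells, with 457 and 18 in cell groups. For this gene the controls of the morphotypes differed, whereas the low-nitrogen libraries lay close together at 2.09 and 2.24 CPM.

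Among the higher genes, Cre14.g617450 had 143 counts in control and 396 under low nitrogen in single cells, with 275 and 1727 in cell groups. Both low-nitrogen libraries lay above both controls, with 48.6 and 215.0 CPM against 15.3 and 38.2 CPM. The mean log2 difference was 2.06 (standard error 0.42, n = 2). The adjacent gene Cre14.g617400 had 198 and 441 counts in single cells, with 293 and 1812 in cell groups, nearly the same profile.

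Cre02.g099400 had 5 counts in control and 126 under low nitrogen in single cells, with 94 and 512 in cell groups. The low-nitrogen library of single cells, at 15.5 CPM, was just above the control of cell groups at 13.1 CPM. Its mean log2 difference was 3.10 (standard error 0.85, n = 2). Cre09.g393100 had 2 and 67 counts in single cells, with 7 and 54 in cell groups. In single cells the ratio was 38.4 (95% exact Clopper-Pearson interval 10.2 to 323.5, for counting error only).

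Cre07.g339850, Cre10.g445151 and Cre17.g707600 were higher within each morphotype, but the morphotypes differed so much in level that the treatments overlapped. Cre07.g339850 had 44 and 199 counts in single cells, with 4 and 35 in cell groups, with nearly equal log2 differences of 2.26 and 2.20. Cre10.g445151 had 11 and 34 counts in single cells, with 41 and 303 in cell groups. Cre17.g707600 had 29 and 147 counts in single cells, with 227 and 748 in cell groups.

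**Figure D3:**
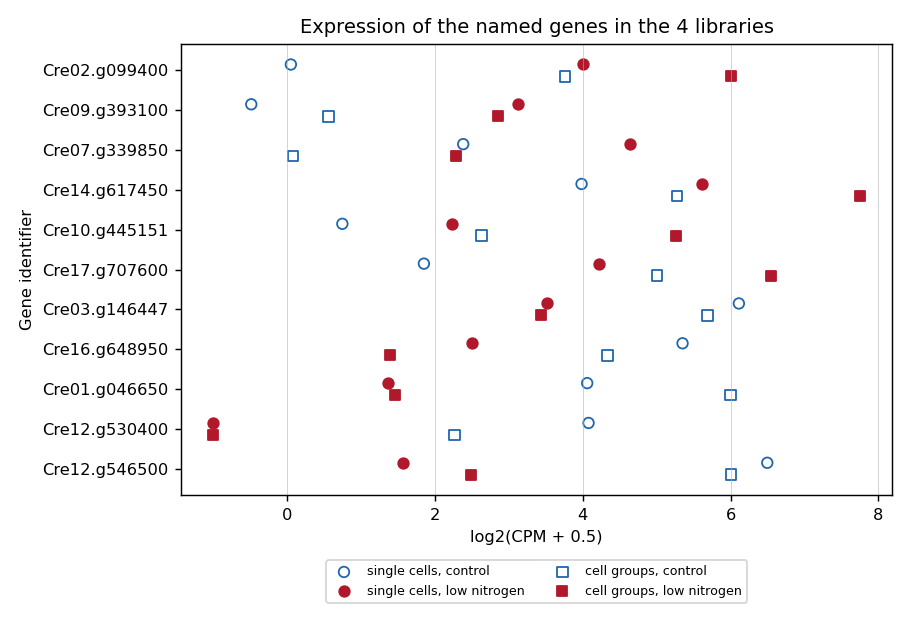
Expression of the 11 named genes in log2(CPM + 0.5), with 1 point per library, circles for single cells, squares for cell groups, open symbols for control and filled symbols for low nitrogen. Within each morphotype the filled symbol lies to the left of the open one for the 5 lower genes and to the right for the 6 higher genes, and for Cre07.g339850, Cre10.g445151 and Cre17.g707600 the treatments overlap across morphotypes.

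The rotifer libraries, which share the medium of the control treatment, were not part of the comparison, and a difference of rotifer against control would use the same control libraries. Their counts are given side by side, from totals of 6275095 in single cells and 5453218 in cell groups. Cre12.g546500 had 45 counts with rotifers in single cells and 246 in cell groups, Cre16.g648950 had 9 and 26, and Cre03.g146447 had 99 and 191. Cre01.g046650 had 0 and 66 counts with rotifers, and Cre12.g530400 had 13 and 21. Among the higher genes, Cre14.g617450 had 143 and 126 counts with rotifers, Cre07.g339850 had 42 and 3, and Cre02.g099400 had 73 and 26. Cre09.g393100 had 6 and 0, Cre10.g445151 had 6 and 58, and Cre17.g707600 had 90 and 155. These are raw counts, and the rotifer totals are lower than those of the control libraries. After scaling, each of the 5 lower genes also had a lower CPM with rotifers than in control in both morphotypes. The gap was small for Cre12.g530400 in cell groups, 4.02 against 4.30 CPM. The 6 higher genes had no common direction with rotifers. The rotifer libraries were scaled over all 6 libraries. The study noted potential contamination of its rotifer samples, from a higher share of unmapped reads.

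Some genes that were lower in both morphotypes lay side by side. Of the 203 such genes placed on chromosomes, 24 (11.8%) stood in 11 runs of immediate neighbours, 2 of them runs of 3 genes. Of the 145 genes higher in both, 10 (6.90%) stood in 5 pairs. Of the 278 genes that were lower in single cells and higher in cell groups, 16 (5.76%) stood in 8 pairs, and of the 71 of the reverse pattern 2 (2.82%) stood in 1 pair. These shares are a description without a test, and they depend on the number of genes in a class. No share over all genes was at hand to set beside them. Whether neighbours are similar in sequence was not examined here, and the strand setting of the counting is not given in the sources used here, so reads of overlapping genes may not be told apart.

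The run with the lowest values consisted of Cre12.g546600, Cre12.g546550 and Cre12.g546500 on chromosome 12. Cre12.g546600 had 1374 counts in control and 10 under low nitrogen in single cells, with 119 and 15 in cell groups. Cre12.g546550 had 863 and 0 counts in single cells, at least 251.1-fold lower against the floor of 3 counts, and 254 and 72 in cell groups. With rotifers, Cre12.g546600 had 152 and 29 counts and Cre12.g546550 had 7 and 120. The genes next to the run on either side, Cre12.g546650 and Cre12.g546450, differed by 0.30 and 0.47 in single cells and by 0.07 and 0.10 in cell groups.

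**Figure D4:**
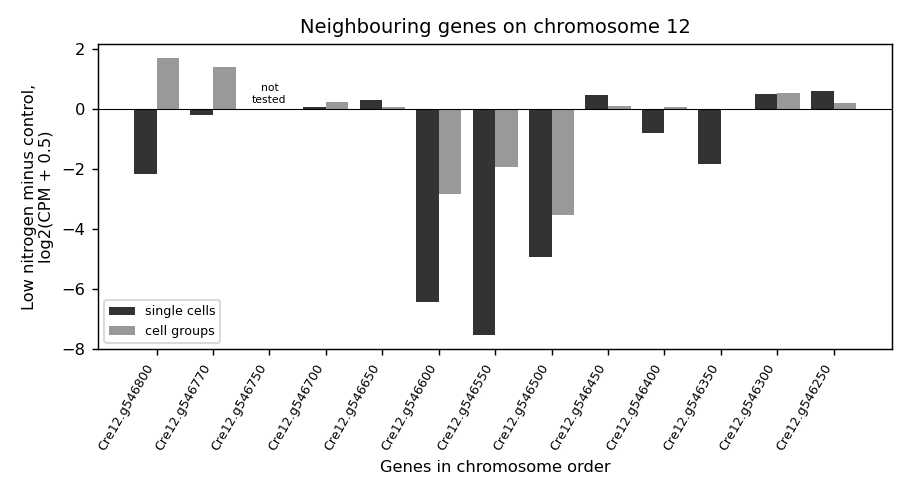
Low nitrogen minus control in log2(CPM + 0.5) for neighbouring genes of chromosome 12 in their order, with dark bars for single cells and light bars for cell groups. The 3 adjacent genes Cre12.g546600, Cre12.g546550 and Cre12.g546500 have differences of -1.92 or below in both morphotypes, while the nearest genes on either side differ by 0.47 or less, and 1 gene of the window was not tested.

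The other run of 3 lay on chromosome 16. Cre16.g670756 had 1464 counts in control and 24 under low nitrogen in single cells, with 112 and 23 in cell groups. Its neighbour Cre16.g667450 had 5849 and 1031 counts in single cells, with 1789 and 831 in cell groups. Among the pairs of higher genes, Cre02.g118125 had 4 and 197 counts in single cells, with 75 and 295 in cell groups. Cre03.g169300 had 514 and 946 counts in single cells, with 88 and 528 in cell groups.

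At a mean of 50 CPM or more, 14 genes were higher and 24 lower in both morphotypes. The log2 differences of the 24 lower genes ran in size from 1.06 to 3.96 in single cells and from 1.03 to 3.28 in cell groups, and their unadjusted p from 0.000713 to 0.0231 (edgeR). Cre03.g188400 had 2683 counts in control and 186 under low nitrogen in single cells, with 1506 and 312 in cell groups. Cre07.g336800 had 1183 and 319 counts in single cells, with 1181 and 132 in cell groups. The controls of this gene were alike in raw counts but lay at 126.7 CPM in single cells and 164.0 CPM in cell groups. Its log2 differences were -1.68 in single cells and -3.28 in cell groups.

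The 14 higher genes differed in size from 1.07 to 3.10 in single cells and from 1.01 to 2.48 in cell groups, with an unadjusted p from 0.00215 to 0.0248 (edgeR). Cre03.g151950 had 139 and 863 counts in single cells, with 2488 and 8347 in cell groups. Cre16.g652300 had 107 and 830 counts in single cells, with 1124 and 3666 in cell groups. In both, on the log2 scale, the controls of the morphotypes lay farther apart than the treatments within a morphotype. Cre02.g106450 had 446 and 1125 counts in single cells, with 1317 and 5400 in cell groups. The genes of this and the preceding paragraph, like the members of the runs, were chosen after their values were seen.

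The study assigns functions to a few genes in which cell group isolates shared variants, and these can be followed under low nitrogen. Cre10.g452800, which the study links to the response to CO2 stress, had 187 counts in control and 915 under low nitrogen in single cells, with 150 and 297 in cell groups. Both low-nitrogen libraries lay above both controls, as in 12.2% of all tested genes, and the log2 differences were 2.46 and 0.81. In the edgeR quasi-likelihood test its adjusted p was 0.999, from 0.0168 before the adjustment. Its rotifer libraries had 1411 counts in single cells and 110 in cell groups.

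Cre12.g491600, linked to nutrient uptake, had 522 and 176 counts in single cells, with 233 and 292 in cell groups. Its log2 differences had opposite signs, -1.35 and 0.17. Cre01.g049826, a DUF3707 gene of the pherophorins, a family of extracellular matrix glycoproteins, had 401 and 347 counts in single cells, with 1383 and 1282 in cell groups. Its log2 differences were -0.01 and -0.27, smaller than the difference between the morphotypes. Cre06.g266300, linked to cytosolic viscosity, had 205 and 245 counts in single cells, with 218 and 302 in cell groups. Cre12.g522650, linked to the regulation of matrix protein genes, had 929 and 383 in single cells, with 440 and 454 in cell groups. For Cre12.g522650 both low-nitrogen libraries lay below both controls, with 47.0 and 56.5 CPM against 99.5 and 61.1 CPM. This pattern was held by 12.5% of all tested genes. The log2 differences of Cre12.g522650 were -1.07 and -0.11. Cre10.g431050, given as a glycoprotein gene, had 28 and 4 counts in single cells, with 6 and 11 in cell groups. Cre06.g290676, the second DUF3707 gene, had 8 and 2 counts in single cells, with 5 and 12 in cell groups and was not tested.

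Of the 19 genes with amino-acid variants shared by the cell group isolates, 18 were tested, and none of them differed 2-fold in the same direction in both morphotypes. The share among all tested genes was 2.47%, so a list of 18 is too small to be read against it. In single cells 22.2% of the list differed 2-fold in either direction, against 22.6% of all tested genes. In cell groups the shares were 11.1% and 11.3%. The median log2 difference of the 18 genes was -0.13 for single cells and 0.08 for cell groups, against 0.00 and -0.01 over all tested genes. Of the 174 genes that the study shared with an earlier experiment on multicellular development, 172 were tested. In this list 1 gene was 2-fold higher (0.581%) and 3 genes were 2-fold lower (1.74%) in both morphotypes, near the 1.02% and 1.45% of all tested genes. Its median log2 difference was 0.12 for single cells and -0.05 for cell groups. The higher gene was Cre08.g381750, with log2 differences of 1.33 and 1.35. Both lists were chosen by the study with these isolates or libraries in view, so they are not independent of them.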

How the data were processed

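RNA-seq counts of 4 libraries of *C. reinhardtii* were compared, and the 2 rotifer libraries entered only an alternative fit. After a FastQC check, the authors aligned the reads with hisat2 (Chlamydomonas genome, version 5.0) and used HTSeq for counting. The counts they deposited are whole numbers without normalization, for 17741 genes. Versions and the strand setting are not given in the sources used here. The deposited DESeq2-normalized values and the authors' own fold changes and p-values were not used.

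Tested were the 14340 genes with 15 counts in total and, in 2 or more of the 4 libraries, a level of 1.236 CPM, which is 10 counts at the median library size. The main test was the quasi-likelihood test of edgeR 4.0.16 in R 4.3.3 with TMM scaling, treatment and morphotype as terms and 1 residual degree of freedom. Each low-nitrogen library is paired with the control library of the same isolate. Across genes, the difference between morphotypes in control had an r of 0.46 with that under low nitrogen. The difference between low nitrogen and control in single cells had an r of 0.0027 with that in cell groups. Alternatives used DESeq2 1.42.0, limma 3.58.1, other scalings, filters and pseudocounts. The floor of 3 counts equals 0.321 to 0.417 CPM after TMM scaling, depending on the library.

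The named genes were those with the largest shared difference (the smaller of the differences in the 2 morphotypes), 2 per direction, and the 5 with the lowest p per direction. The members and lists were chosen with earlier results of these data known. The lists of pathways set for this comparison were not used, because the gene table, which matched 17738 identifiers, names no gene. That table, of a RefSeq assembly called version 5.5, served for gene order and span only, and no coordinates are printed. No sequence is printed, since none was at hand.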

Additional observations from a re-analysis of the deposited data

Results flagged for a closer look

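The 4 genes below, chosen after their values were seen, are the 2 in each combination of directions with the largest opposite differences, ranked by the smaller of the differences in the morphotypes. Each value rests on 1 library per condition, and the difference between the morphotypes was not tested. Cre09.g404201 had 802 counts in control and 51 under low nitrogen in single cells, with 70 and 1003 in cell groups, so that the log2 difference of single cells lay -7.29 from that of cell groups. Cre17.g728450 had 398 and 5 counts in single cells, with 0 and 31 in cell groups, where it was at least 9.27-fold higher against the floor of 3 counts, and subtracting the log2(CPM + 0.5) differences gave -8.40, a value that depends on the pseudocount. Cre06.g284600 had 99 and 519 counts in single cells, with 106 and 15 in cell groups, a difference of 5.22. Cre03.g153450 had 527 and 2321 counts in single cells, with 416 and 105 in cell groups, a difference of 4.43. With 2 libraries per treatment, no single library could be tested as an outlier.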

How the results depend on the processing

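The count of genes with an adjusted p under 0.05 was 0 in the main test and also with RLE size factors, library totals alone, at least 10 counts in each library, limma, no replicate block (262 genes at an unadjusted p under 0.05) and all 6 libraries. It was 10 without a filter beyond 1 count, all lower, and 22 with DESeq2. Leaving out each of the 4 libraries from the fit of all 6 gave 0 to 488 calls, and the 488 came without the control library of cell groups. Genes 2-fold higher in both morphotypes numbered 56 with a pseudocount of 2 CPM, 72 with at least 10 counts in each library and 6 at 4-fold, and those lower in both 106, 136 and 17. Genes lower in single cells and higher in cell groups numbered 133, 176 and 25 under these settings. The reverse pattern numbered 46 with a pseudocount of 2 CPM, 3 at 4-fold and 45 with library totals alone. A higher pseudocount, minimum or fold takes in fewer genes by construction, and the cause of the other shifts was not tested. The 11 named genes kept their direction in all 128 values under the alternatives and passed the threshold in 13 of them, but their sizes moved with single libraries. The constant direction was largely fixed by the choice of these genes, which used the same libraries. In the fit of all 6 libraries, Cre02.g099400 had a log2 fold change of 1.74 without the single-cell control library and 5.76 without the cell-group control library. Cre12.g546500 had -3.24 and -5.65. Alternatives for pathway lists were not run, since no list could be matched to identifiers. With 1 residual degree of freedom and 1 isolate per morphotype, single genes carry wide errors, and genes under 5 CPM rest on few reads.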

Other observations

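The share of genes that were lower in both morphotypes ran over a range among the chromosomes. On chromosome 17, 24 of 870 tested genes (2.76%) and on chromosome 1, 28 of 1056 (2.65%) were at least 2-fold lower in both morphotypes, against 1 of 549 (0.182%) on chromosome 8. Genes higher in both morphotypes took 2.00% of the tested genes on chromosome 8, or 11 genes, and 0.568% on chromosome 1. The lowest shares of such genes were 0% of 168 genes on chromosome 15 and 0.525% on chromosome 5. Over all tested genes, 1.45% were lower and 1.02% higher in both. Chromosome 17 also had the largest share of genes lower in single cells and higher in cell groups, 3.10%. These shares are values without a test, and neighbouring genes count separately in them. Genes that were higher in single cells and lower in cell groups had higher levels than the other combinations, with a median of the mean CPM of 31.5. Of the 72, 29 (40.3%) reached 50 CPM, against 21.2% of all tested genes. In this set the median CPM under low nitrogen was 66.4 for single cells and 10.2 for cell groups, against 19.5 and 31.7 in control. The directions of these medians were fixed by the choice of the set, which used the same libraries.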
